A study of Mus musculus with 9 samples.

Results

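Müller glia are the main support cells of the retina. They span its full depth, take up the glutamate that neurons release and turn it into glutamine, carry away the potassium and water that neuronal activity leaves behind, buffer acid, and supply lipids. Described here are 10 genes of that homeostatic role, taken by gene symbol from the 55487 genes of the deposited table: Slc1a3 and Glul (glutamate), Kcnj10 and Aqp4 (potassium and water), Car2 and Car14 (acid-base balance), Apoe and Abca8a (lipids), Vim (filament) and Sox9 (transcription factor). The question is what level each held when the TET enzymes, which oxidize 5-methylcytosine at CpG sites as a step in removing DNA methylation, were lost from retinal progenitor cells, the dividing cells from which retinal neurons and Müller glia both arise.

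RNA-seq covered whole mouse retina at postnatal day 21 in 3 genotypes of 3 libraries each, and each library pooled the retinas of 2 animals, labelled C57 BL/6J. Controls without Cre (Cre−, labelled WT) were compared with retinas that carried Chx10-Cre-GFP and 1 floxed allele at each of Tet1, Tet2 and Tet3 (loxp/+, tHet), and with retinas that carried Chx10-Cre-GFP and only floxed alleles of these genes (loxp/loxp, Tet tcKO). The transgene acts in retinal progenitors and can be mosaic. It was carried in 2 functional copies after in-crossing in tHet and Tet tcKO only, and Cre− animals came from Cre− breeders, so any difference of Cre− from either Cre+ genotype cannot be told apart from one between breeding lines. Same-numbered libraries of different genotypes were not from the same animals.

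Levels are in CPM, a gene's read count scaled by the total of reads on genes in the same library, and that total ran from 9627927 to 21108256. A single ribosomal RNA gene, CT010467.1, took 28.7% of the reads of Tet tcKO replicate 3 and 3.72% in tHet replicate 3, against at most 0.226% in any other library. This lowers the CPM of every other gene in that Tet tcKO library. Whole-gene reads of Tet3 ran from 99.2 to 152 CPM in Tet tcKO, below the 213 to 268 CPM of Cre− and the 155 to 288 CPM of tHet, whereas Tet1 and Tet2 overlapped between genotypes, and these totals include exons that remain after recombination. The summed level of 7 rod photoreceptor genes was 31606 to 38137 CPM in Cre−, 27308 to 33904 CPM in tHet and 3170 to 10882 CPM in Tet tcKO, and its part in the levels of the Müller glia genes was not tested. From RNA levels in tissue of mixed cell types, fewer Müller glia and less RNA per Müller glial cell cannot be told apart. By staining for the protein LHX2, the study reports an increased proportion of Müller glia in TET mutant retinas. That count was not analysed here.

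All 10 genes were well detected, with at least 210 reads in every library, and all passed the low-level filter (at least 0.5 CPM in at least 3 libraries), as did 21330 genes in all. A gene is called when its log2 fold change (log2FC), on the scale of log2(CPM + 0.5), is at least 1 up or down with an adjusted p under 0.01, from limma with Benjamini-Hochberg adjustment over the genes tested. In Tet tcKO versus Cre−, Apoe rose and Glul and Abca8a fell, 1 called higher and 2 called lower of 10, where 2.03% of all tested genes were called higher and 1.57% lower. In Tet tcKO versus tHet, Apoe rose and Glul, Abca8a and Car14 fell, 1 higher and 3 lower of 10, against 1.39% and 1.61% of all genes. In tHet versus Cre−, 0 of the 10 were called, where 0.0422% of all genes were called higher and 0% lower. The 2 comparisons of Tet tcKO share its libraries.

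**Figure D1:**
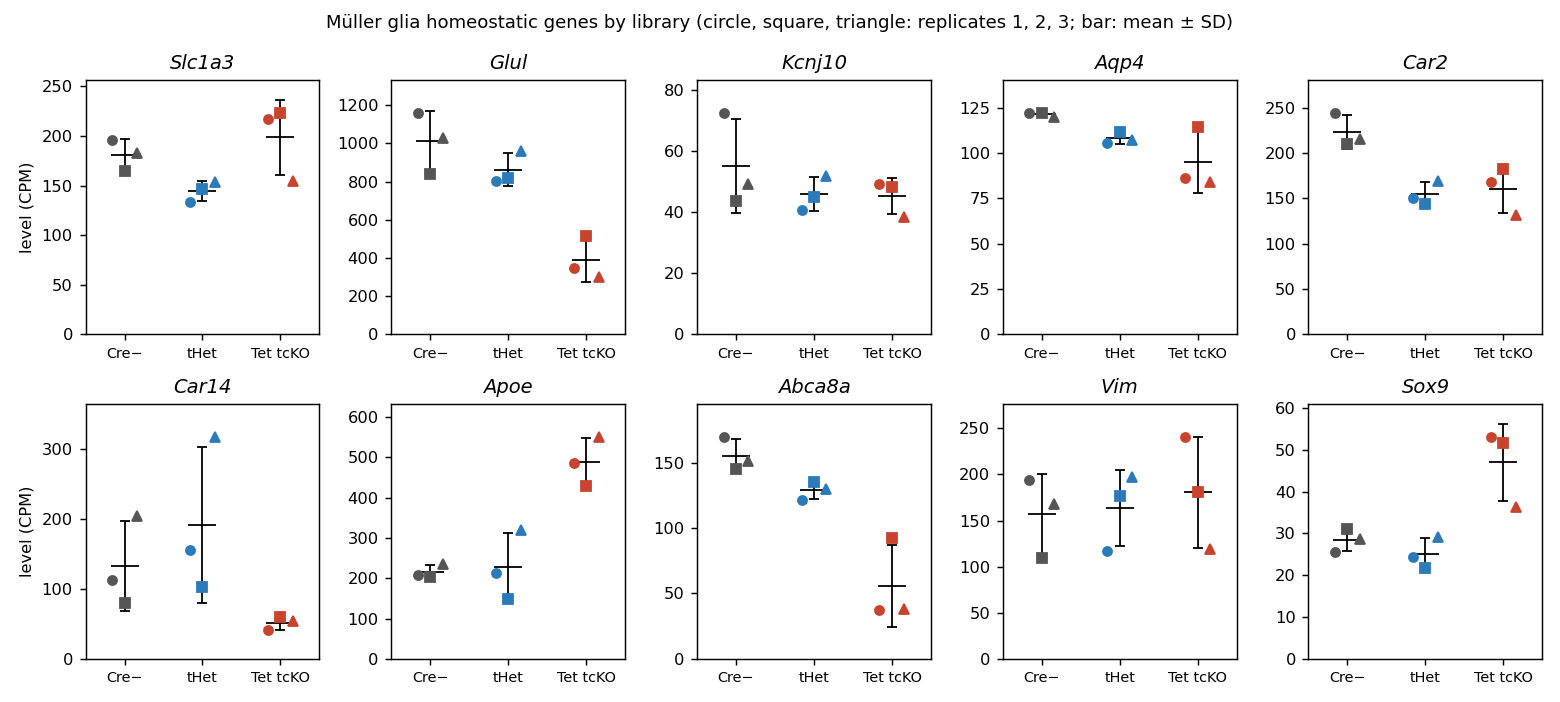
Each panel gives the level of 1 gene in CPM (vertical axis, from 0) in the 9 libraries by genotype, with the mean and SD of the 3 libraries as black bars and the replicate number shown by the symbol. Glul, Abca8a and Car14 lay lower and Apoe and Sox9 higher in all 3 Tet tcKO libraries than in any library of the other genotypes, while Vim and Kcnj10 overlapped.

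Counting order alone, without a threshold on size, all 3 Tet tcKO libraries lay above all 3 Cre− libraries for 2 of the 10 genes and below them for 5, where 10.0% and 9.60% of all tested genes did so. Against tHet the order was complete for 3 genes upward and 3 downward (7.35% and 9.68% of all genes). In tHet against Cre− it was complete for 0 upward and 4 downward (5.78% and 5.37% of all genes). The median log2FC of the 10 genes was −0.31 in Tet tcKO versus Cre−, 0.01 in Tet tcKO versus tHet and −0.20 in tHet versus Cre−, beside medians over all tested genes of 0.00, −0.06 and 0.06. The medians hide opposite movements, since log2FC against Cre− ran from −1.60 for Abca8a to 1.17 for Apoe.

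**Figure D2:**
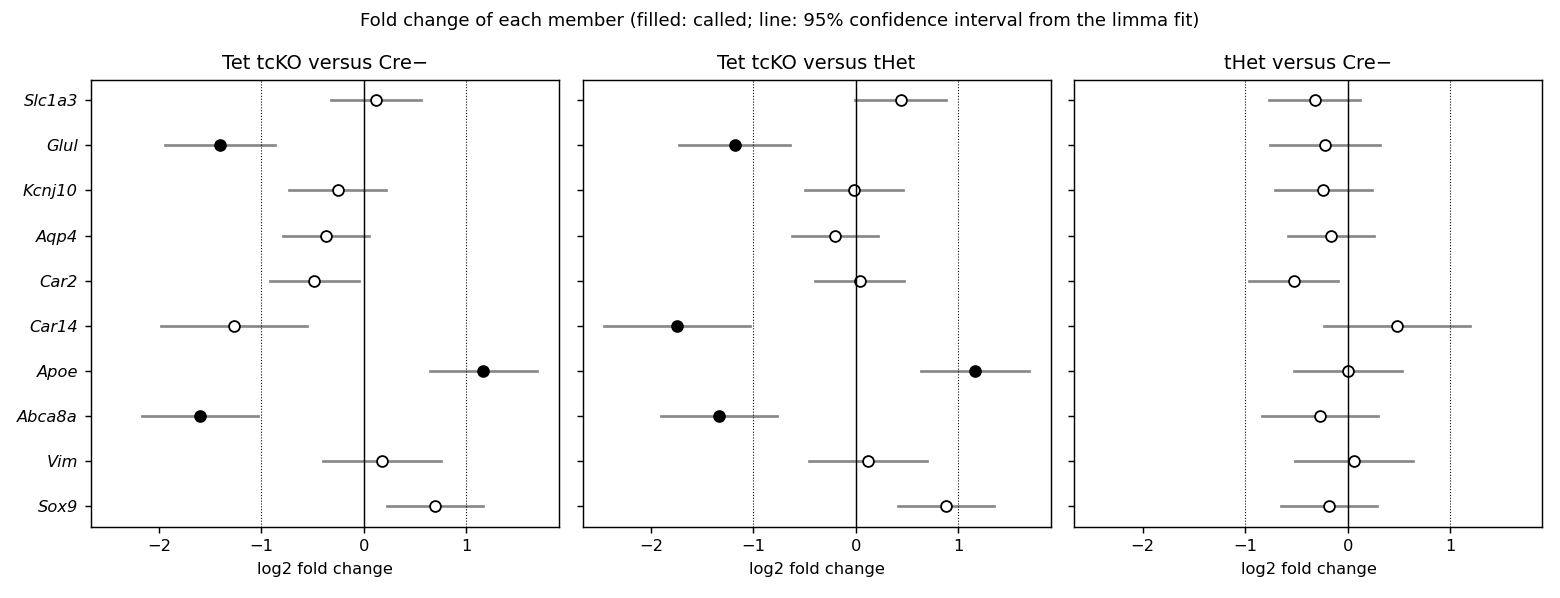
Log2 fold change (horizontal axis) of each gene in the 3 comparisons, with the 95% confidence interval from limma as a line, filled points for called genes and dotted lines at −1 and 1. Glul and Abca8a were called lower and Apoe higher in both comparisons of Tet tcKO, Car14 lower only in that with tHet, and the tHet versus Cre− panel has no filled point.

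Because TET enzymes act at CpG sites, the promoter windows of the 3 genes called against Cre− are printed with those of Car14, called against tHet, and Slc1a3, not called in either. The windows come from RefSeq (GRCm38.p6), run from 250 bases before to 50 bases after an annotated transcription start, and are written 5′ to 3′ on the gene's strand with CpG dinucleotides in capitals. Windows were used for 7 of the 10 genes, and of 3 for Apoe the most upstream is shown.
Glul, chr1:153899679-153899978, plus strand: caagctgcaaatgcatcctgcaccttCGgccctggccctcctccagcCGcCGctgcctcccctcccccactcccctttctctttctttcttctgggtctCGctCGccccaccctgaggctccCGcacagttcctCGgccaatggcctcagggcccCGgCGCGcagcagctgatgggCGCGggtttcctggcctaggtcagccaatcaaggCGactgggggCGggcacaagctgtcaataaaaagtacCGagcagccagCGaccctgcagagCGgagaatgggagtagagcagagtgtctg
Abca8a, chr11:110095888-110096187, minus strand: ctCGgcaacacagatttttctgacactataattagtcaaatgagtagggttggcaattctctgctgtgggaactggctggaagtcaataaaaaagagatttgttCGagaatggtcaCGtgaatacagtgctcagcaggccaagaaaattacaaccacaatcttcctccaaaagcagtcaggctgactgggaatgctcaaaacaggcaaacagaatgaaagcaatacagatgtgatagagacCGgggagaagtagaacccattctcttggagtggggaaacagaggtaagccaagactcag
Apoe, chr7:19699139-19699438, minus strand: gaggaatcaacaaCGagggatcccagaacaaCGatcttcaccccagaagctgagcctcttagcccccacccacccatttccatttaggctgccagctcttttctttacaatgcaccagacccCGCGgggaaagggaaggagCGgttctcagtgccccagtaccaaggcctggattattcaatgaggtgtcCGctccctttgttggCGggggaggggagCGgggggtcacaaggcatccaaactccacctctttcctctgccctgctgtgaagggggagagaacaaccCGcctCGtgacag
Car14, chr3:95904636-95904935, minus strand: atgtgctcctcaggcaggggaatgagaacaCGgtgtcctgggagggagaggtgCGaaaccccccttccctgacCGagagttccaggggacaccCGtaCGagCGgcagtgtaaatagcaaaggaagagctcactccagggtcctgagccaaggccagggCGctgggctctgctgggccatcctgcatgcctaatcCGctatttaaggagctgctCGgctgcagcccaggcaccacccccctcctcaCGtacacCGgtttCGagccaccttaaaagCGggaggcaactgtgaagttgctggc
Slc1a3, chr15:8710758-8711057, minus strand: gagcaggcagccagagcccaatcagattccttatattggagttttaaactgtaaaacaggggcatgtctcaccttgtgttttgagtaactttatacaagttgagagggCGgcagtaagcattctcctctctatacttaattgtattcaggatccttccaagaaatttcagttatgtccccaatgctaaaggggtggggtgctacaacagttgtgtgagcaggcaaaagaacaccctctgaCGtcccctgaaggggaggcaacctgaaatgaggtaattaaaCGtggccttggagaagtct

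These windows differ widely in CpG content. Glul holds 17 CpG dinucleotides in 300 bases, Car14 13 and the Apoe window shown 10, whereas Abca8a holds 4 and Slc1a3 holds 3. Over 32851 windows of this length the median was 7, with quartiles of 3 and 20. Kcnj10 holds 21 and Vim 11. Among genes that fell, Glul is thus above and Abca8a below the median window. DNA methylation at these windows was not analysed here.

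The same windows were searched on both strands for motifs of factor families active in glia: SOX (ACAATG or ACAAAG), the NFI site TTGGCA, the E-box CACGTG, and the N-box CACGAG that HES proteins can bind. A SOX match was present in the Apoe window shown, once on each strand at −144 and −54 relative to the start, and in Kcnj10 at +1, while 28.6% of all windows hold one. The Abca8a window holds an NFI site at −201 and an E-box at −136 (14.1% and 7.15% of all windows), and the Apoe window shown an N-box at +41 (6.47%). Of the other Apoe windows, 1 holds an NFI site at −57 and 1 has no match. Glul, Car14, Vim and Slc1a3 had no match. None of these motifs contains another. A match describes the letters only.

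Slc1a3 (ENSMUSG00000005360.14, chromosome 15, 8634124 to 8710764 in GRCm38, minus strand) encodes GLAST, the glutamate transporter through which Müller glia clear glutamate. It stood at 196, 164 and 183 CPM in Cre− replicates 1, 2 and 3, 134, 147 and 153 CPM in tHet and 217, 223 and 155 CPM in Tet tcKO. Tet tcKO replicate 3, the library rich in ribosomal RNA, lay below all Cre− libraries, and replicates 1 and 2 lay above them. With CT010467.1 left out of the totals, all Tet tcKO libraries lie above all Cre− libraries. Versus Cre− the log2FC of Slc1a3 was 0.12 (SE 0.21, limma adjusted p = 0.910), with a 95% interval of −0.32 to 0.56 that excludes −1 and 1. Against tHet it was 0.44 (SE 0.21, limma adjusted p = 0.288), and the Tet tcKO libraries all exceeded the tHet libraries.

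Glul (ENSMUSG00000026473.16, chromosome 1, 153899944 to 153909723, plus strand) encodes glutamine synthetase, which turns the glutamate taken up into glutamine. It stood at 1159, 840.3 and 1029.6 CPM in Cre−, 802, 820.2 and 961 CPM in tHet and 349.9, 514 and 301 CPM in Tet tcKO, and no Tet tcKO library overlapped either other genotype. Glul fell 2.64-fold versus Cre−, a log2FC of −1.40 (SE 0.26, limma adjusted p = 0.00147). Versus tHet it fell 2.27-fold, a log2FC of −1.18 (SE 0.26, limma adjusted p = 0.00688). Of the glutamate pair, the enzyme was thus called lower and the transporter was not called, and the ratio between them is given with the other ratios to Slc1a3. The call against Cre− was lost without Cre− replicate 3 (adjusted p = 0.0116) or Tet tcKO replicate 1 (0.0138) and with no low-level filter (0.0101). The call against tHet was lost without Cre− replicate 3, any tHet replicate, or Tet tcKO replicate 1 or 3 (adjusted p from 0.0139 to 0.0487), with TMM scaling (0.0105) and with no filter (0.0326). Glul exons overlap Mir8114 on the same strand and Teddm2 on the opposite strand, and how reads there were assigned is not given in the sources used here.

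Kcnj10 (ENSMUSG00000044708.5, chromosome 1, 172341210 to 172374085, plus strand) encodes Kir4.1, the inwardly rectifying channel that carries potassium out of the retina through Müller glia. It stood at 72.6, 43.6 and 49.3 CPM in Cre−, 40.8, 45.1 and 51.8 CPM in tHet and 49.2, 48.4 and 38.5 CPM in Tet tcKO. The genotypes overlapped and only Cre− replicate 1 stood apart, above the rest. Its log2FC was −0.25 (SE 0.23, limma adjusted p = 0.736) in Tet tcKO versus Cre−, with a 95% interval of −0.73 to 0.22, and −0.02 (SE 0.23, limma adjusted p = 0.981) versus tHet, where TMM or upper-quartile scaling, leaving out CT010467.1 and both count tests changed the sign.

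Aqp4 (ENSMUSG00000024411.11, chromosome 18, minus strand) encodes the water channel aquaporin-4, which lies with Kir4.1 at Müller glial endfeet. It stood at 122, 122 and 119.9 CPM in Cre−, 106, 112 and 107 CPM in tHet and 86.0, 114 and 83.9 CPM in Tet tcKO. The Cre− libraries were nearly identical, and every tHet and Tet tcKO library was below them. The log2FC was −0.37 (SE 0.20, limma adjusted p = 0.409) in Tet tcKO versus Cre− and −0.20 (SE 0.20, limma adjusted p = 0.690) versus tHet, neither past the threshold. Both channels had 95% intervals that end above −1 in each comparison, with the interval of Aqp4 against Cre− at −0.79 to 0.05.

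Car2 (ENSMUSG00000027562.12, chromosome 3, 14886273 to 14900770, plus strand) encodes the cytosolic carbonic anhydrase II, which interconverts carbon dioxide and bicarbonate in Müller glia. It stood at 244, 209.5 and 216 CPM in Cre−, 151, 144 and 169.7 CPM in tHet and 168, 183 and 131 CPM in Tet tcKO. Both Cre+ genotypes lay wholly below Cre− and overlapped each other. The log2FC was −0.48 (SE 0.21, limma adjusted p = 0.228) in Tet tcKO versus Cre− and −0.53 (SE 0.21, limma adjusted p = 1.000) in tHet versus Cre−, neither called. In Tet tcKO versus tHet it was 0.04 (SE 0.21, limma adjusted p = 0.952).

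Car14 (ENSMUSG00000038526.14, chromosome 3, 95897768 to 95904691, minus strand) encodes carbonic anhydrase XIV, a membrane enzyme that faces the extracellular space and is made by Müller glia and the retinal pigment epithelium. It stood at 113, 80.2 and 205 CPM in Cre−, 156, 103 and 317 CPM in tHet and 40.8, 60.4 and 53.8 CPM in Tet tcKO. Replicate 3 was the highest library in both Cre− and tHet, and every Tet tcKO library was below every other library. Car14 fell 3.35-fold versus tHet, a log2FC of −1.75 (SE 0.34, limma adjusted p = 0.00278). Versus Cre− its log2FC was −1.26 (SE 0.34, limma adjusted p = 0.0280), short of the call. The call against tHet was lost without Tet tcKO replicate 1 (adjusted p = 0.0357) or 3 (0.0486), with every other scaling and in both count tests (0.0241 in DESeq2 to 0.0396 with TMM), and with no filter (0.0232). Against Cre− it was called without Cre− replicate 2 (0.00218), tHet replicate 2 (0.00954) or tHet replicate 3 (0.00107), and with only the 6 libraries compared (5.3e-04), whereas without Cre− replicate 3 its log2FC was −0.90 (0.211).

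The retinal pigment epithelium adjoins the retina and can come away with it in dissection. The summed level of 7 of its markers was 149, 37.2 and 78.8 CPM in Cre−, 147, 111 and 132 CPM in tHet and 37.1, 35.2 and 24.1 CPM in Tet tcKO. All Tet tcKO libraries were thus below all others in this sum as in Car14, if only just below Cre− replicate 2, but the highest Cre− library of the sum was replicate 1 and that of Car14 replicate 3. Of the 7 markers, 2 were called lower versus Cre− (Rpe65 and Lrat) and 4 versus tHet. Of all tested genes, 1.57% and 1.61% were called lower. Versus Cre− 4 markers had a negative and 3 a positive log2FC, the highest 0.95, and versus tHet 6 and 1. The level of every marker was above 0 in each library. The part of pigment epithelium in the level of Car14 was not tested. Exons of Car14 also overlap Aph1a on the opposite strand.

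Apoe (ENSMUSG00000002985.16, chromosome 7, 19696109 to 19699188, minus strand) encodes apolipoprotein E, the lipid carrier that Müller glia and microglia release. It stood at 209, 204 and 236 CPM in Cre−, 212, 148 and 319.5 CPM in tHet and 486, 428 and 549 CPM in Tet tcKO. Every Tet tcKO library exceeded every other library, and the tHet libraries spread over a wide range. Apoe rose 2.25-fold versus Cre−, a log2FC of 1.17 (SE 0.25, limma adjusted p = 0.00538). Versus tHet it rose 2.25-fold, a log2FC of 1.17 (SE 0.25, limma adjusted p = 0.00636). Its level in Tet tcKO was highest in replicate 3, the library with the most reads on CT010467.1. The call against Cre− was lost with TMM scaling (adjusted p = 0.0418), upper-quartile scaling (0.0446), edgeR (0.0344) and no filter (0.0268), and without any Cre− replicate or Tet tcKO replicate 1 or 3 (0.0115 to 0.0356). That against tHet was lost under the same settings, without CT010467.1 (0.0108), and without Cre− replicate 3, tHet replicate 1 or 2, or Tet tcKO replicate 1 or 3 (0.0109 to 0.0528).

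Microglia, the resident immune cells, also make Apoe. The summed level of 8 microglial markers was 30.6, 20.9 and 24.3 CPM in Cre−, 28.4, 29.9 and 41.3 CPM in tHet and 68.1, 47.2 and 34.3 CPM in Tet tcKO. In this sum the Tet tcKO libraries exceeded those of Cre−, and replicate 3 alone overlapped tHet. Replicate 3, the highest Tet tcKO library for Apoe, was the lowest Tet tcKO library of this sum. CT010467.1 took 28.7% of its reads, which lowers its sum. Both its lowest rank and its overlap with tHet rest on that share, and neither remains when CT010467.1 is left out of the totals. Cx3cr1 alone of the 8 was called higher versus Cre−. Versus tHet limma, edgeR and DESeq2 called 0 of the 8, and 2 had an unadjusted limma p under 0.05. All 8 were above 0 in each library. The part of microglia in the level of Apoe was not tested.

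**Figure D3:**
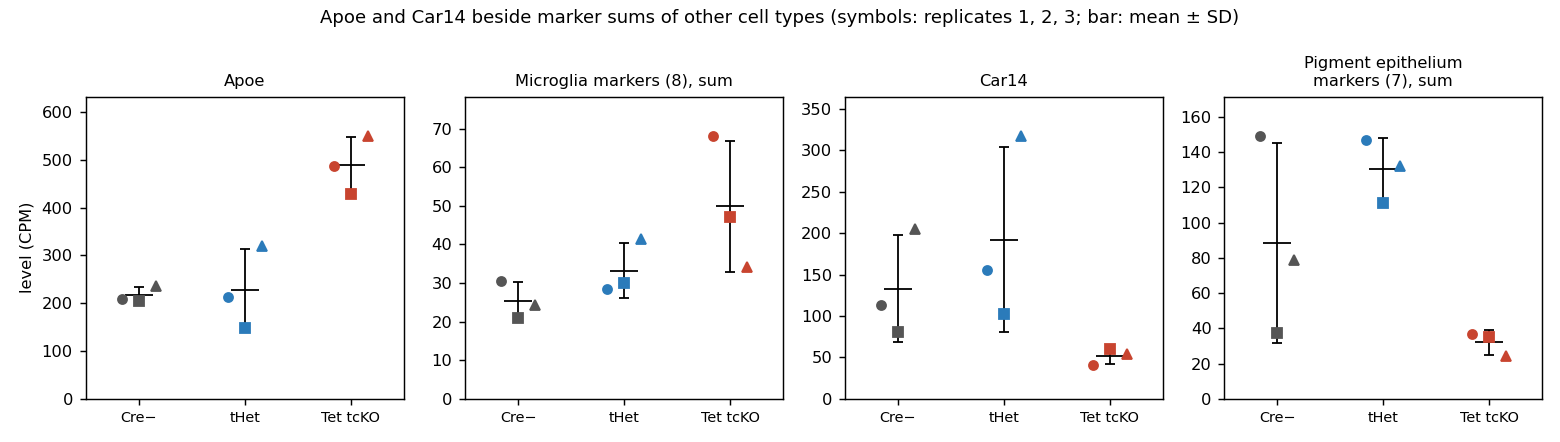
Levels in CPM (vertical axes, from 0) of Apoe, the sum of 8 microglial markers, Car14 and the sum of 7 pigment epithelium markers in the 9 libraries by genotype, with mean and SD as bars. Apoe was highest in Tet tcKO replicate 3 (triangle), the library lowest of the Tet tcKO libraries in the microglial sum. The levels of that library are lowered by the 28.7% of its reads on CT010467.1. Its low place in the microglial sum rests on those reads. Both Car14 and the pigment epithelium sum were lowest in Tet tcKO.

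Abca8a (ENSMUSG00000041828.15, chromosome 11, 110025634 to 110095978, minus strand) encodes a lipid transporter of the ATP-binding cassette family. It stood at 169, 145 and 151 CPM in Cre−, 121, 135 and 129 CPM in tHet and 37.1, 92.1 and 38.0 CPM in Tet tcKO. The genotypes did not overlap, and Tet tcKO replicate 2 was the highest of its group. Abca8a fell 3.03-fold versus Cre−, a log2FC of −1.60 (SE 0.27, limma adjusted p = 6.6e-04), and 2.52-fold versus tHet, a log2FC of −1.34 (SE 0.27, limma adjusted p = 0.00382). The call against Cre− was lost without Tet tcKO replicate 1 (adjusted p = 0.0106) or 3 (0.0184) and stood in every other setting run. That against tHet was lost without either of these (0.0476 and 0.0506), without tHet replicate 1 (0.0133) or 2 (0.0135), with CT010467.1 left out (0.0109), in edgeR (0.0135) and with no filter (0.0227). Its close paralog Abca8b, with which it could share reads, stood at 49.9, 60.3 and 52.2 CPM in Cre−, 52.0, 50.9 and 59.0 CPM in tHet and 31.8, 53.8 and 28.5 CPM in Tet tcKO. Abca8b was not called, with a log2FC of −0.55 (SE 0.24, limma adjusted p = 0.217) versus Cre−, but it too was lowest in Tet tcKO replicates 1 and 3. The difference between the paralogs was not tested.

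Vim (ENSMUSG00000026728.9, chromosome 2, 13573927 to 13582826, plus strand) encodes vimentin, the intermediate filament of Müller glia, which astrocytes and vascular cells also make. It stood at 194, 109.6 and 168 CPM in Cre−, 117, 177 and 197 CPM in tHet and 240.2, 181 and 119.6 CPM in Tet tcKO. The genotypes overlapped throughout, and the Tet tcKO libraries ranged from among the lowest to the highest of all 9. The lowest Tet tcKO library was replicate 3, the library rich in ribosomal RNA. The log2FC was 0.18 (SE 0.28, limma adjusted p = 0.887) versus Cre− and 0.12 (SE 0.28, limma adjusted p = 0.891) versus tHet, and the sign of each changed with single libraries left out. Gfap, the filament that Müller glia add when stressed and astrocytes hold at rest, stood at 25.7, 22.5 and 40.8 CPM in Cre−, 42.2, 46.6 and 179.9 CPM in tHet and 113, 45.3 and 34.9 CPM in Tet tcKO. Its highest library was tHet replicate 3, and its log2FC was 0.96 (SE 0.44, limma adjusted p = 0.271) in Tet tcKO versus Cre− and −0.33 (SE 0.44, limma adjusted p = 0.793) versus tHet. The second of these was 0.34 without tHet replicate 3. The sum of 5 retinal astrocyte markers, Gfap among them, was 43.7, 36.0 and 57.6 CPM in Cre−, 54.7, 63.4 and 203 CPM in tHet and 141, 65.0 and 51.2 CPM in Tet tcKO, with all 5 above 0 in each library. Tet tcKO replicate 1 was the highest of its group in Vim, in Gfap and in this sum. Gfap makes up most of this sum in every library, so the sum is not a reading separate from Gfap. The part of astrocytes in the levels of Vim and Aqp4 was not tested.

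Sox9 (ENSMUSG00000000567.5, chromosome 11, 112782224 to 112787760, plus strand) encodes a transcription factor of retinal progenitors that stays on in Müller glia. It stood at 25.6, 31.1 and 28.8 CPM in Cre−, 24.5, 21.8 and 29.1 CPM in tHet and 53.0, 51.7 and 36.3 CPM in Tet tcKO. The Tet tcKO libraries all exceeded those of both other genotypes. The log2FC was 0.70 (SE 0.22, limma adjusted p = 0.0745) versus Cre− and 0.88 (SE 0.22, limma adjusted p = 0.0209) versus tHet, short of the call in both. With Tet tcKO replicate 3 left out it was 1.05 versus tHet (adjusted p = 0.00733), and with CT010467.1 left out 1.02 (0.00151), both calls. The summed level of 6 retinal progenitor genes was 11.1 to 12.3 CPM in Cre−, 12.7 to 16.2 CPM in tHet and 23.7 to 39.8 CPM in Tet tcKO, and its part in the level of Sox9 was not tested.

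Ratios between genes of the same library do not depend on the library total. As a reading chosen after the values were seen, each of the other genes was divided by Slc1a3 on the log2 scale. Glul over Slc1a3 was 2.56, 2.35 and 2.49 in Cre−, 2.59, 2.48 and 2.65 in tHet and 0.69, 1.20 and 0.96 in Tet tcKO, a mean difference of −1.52 from Cre− and −1.62 from tHet. Abca8a over Slc1a3 was −0.21, −0.18 and −0.28 in Cre−, −0.14, −0.12 and −0.24 in tHet and −2.55, −1.28 and −2.03 in Tet tcKO. The Cre− and tHet libraries thus lay close together for both ratios, and Tet tcKO lay apart.

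For Kcnj10, Aqp4 and Car2 as well, every Tet tcKO library had a lower ratio to Slc1a3 than every library of the other genotypes. The denominator itself was higher in Tet tcKO than in tHet in all libraries (log2FC 0.44), whereas Kcnj10 and Car2 had log2FC of −0.02 and 0.04 there, so for these genes the lower ratios against tHet are mostly the difference in Slc1a3. Their mean differences from Cre− were −0.37, −0.49 and −0.60, and from tHet −0.46, −0.64 and −0.40. Sox9 over Slc1a3 was −2.04, −2.11 and −2.09 in Tet tcKO, above the −2.94, −2.40 and −2.67 of Cre− and the −2.45, −2.75 and −2.40 of tHet. Apoe over Slc1a3 was higher in Tet tcKO than in Cre− in all libraries and overlapped tHet, and Vim over Slc1a3 overlapped in both comparisons. With 3 libraries against 3, an exact two-sided permutation test of a single ratio cannot go below p = 0.1, which each complete separation gives, and 27 ratio comparisons were made.

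**Figure D4:**
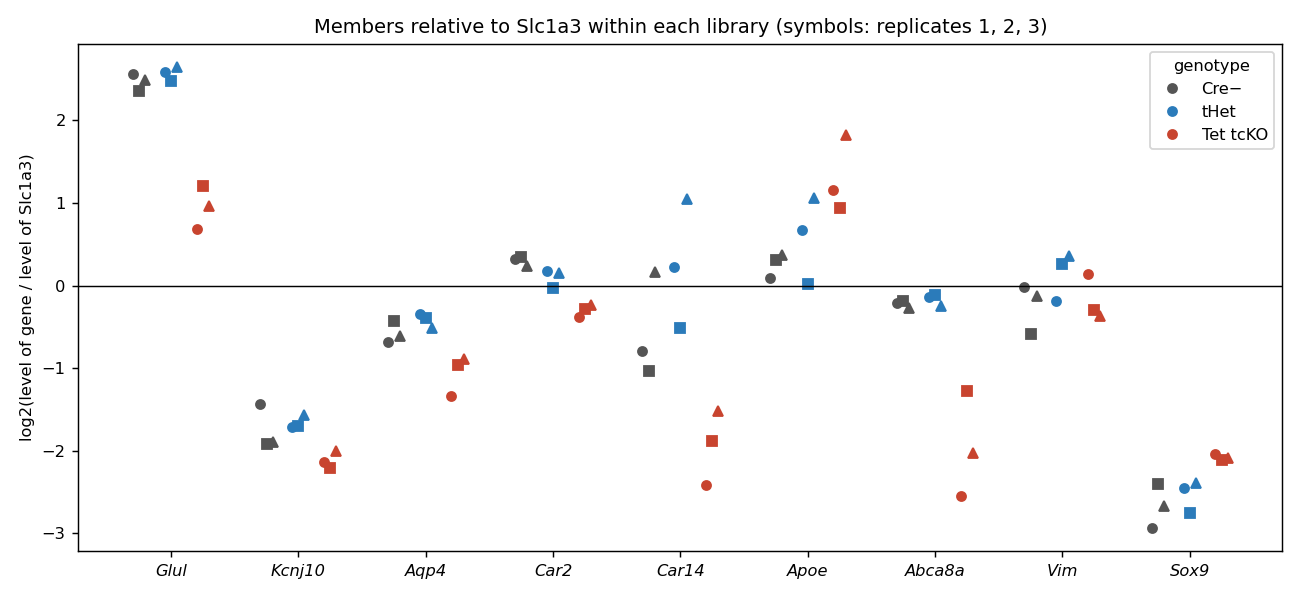
Log2 of the level of each gene over the level of Slc1a3 in the same library (vertical axis), by genotype, with 1 point per library and the replicate number shown by the symbol. For Glul, Kcnj10, Aqp4, Car2, Car14 and Abca8a all 3 Tet tcKO points lay below the Cre− and tHet points, and for Sox9 above them.

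Levels per kilobase of exon allow the genes to be compared with each other. In Cre− the order was Glul at 304 ± 48.2 CPM per kb (SD, n = 3), Apoe at 101 ± 7.93, Car2 at 92.1 ± 7.64, Car14 at 52.3 ± 25.5, Vim at 33.1 ± 9.08, Abca8a at 24.7 ± 2.03, Slc1a3 at 21.2 ± 1.86, Aqp4 at 19.4 ± 0.186, Kcnj10 at 10.2 ± 2.84 and Sox9 at 6.89 ± 0.668. Neighbours from Car14 to Aqp4 in this order, Apoe and Car2, and Kcnj10 and Sox9 had overlapping ranges of mean ± SD. In tHet the 4 highest were Glul at 259 ± 26.1 CPM per kb, Apoe at 106 ± 40.5, Car14 at 75.6 ± 43.9 and Car2 at 64.0 ± 5.48, the last 3 overlapping. In Tet tcKO the first 2 places were exchanged, with Apoe at 228 ± 28.3 CPM per kb and Glul at 117 ± 33.5. There the mean ± SD range of Abca8a, at 8.88 ± 5.02, overlapped those of Kcnj10 at 8.40 ± 1.10 and Sox9 at 11.4 ± 2.25.

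All 21 genes of a wider list of Müller glial identity and metabolism were tested. In Tet tcKO versus Cre−, 1 was called higher (Prdx6) and 1 lower (Rlbp1), and 19 were not called, with a median log2FC of 0.28, where 2.03% of all tested genes were called higher and 1.57% lower. Versus tHet 1 was called, Rlbp1, again lower, with a median of 0.32. With CT010467.1 left out, 4 of the 21 were called versus Cre− and 3 versus tHet. Versus Cre− the count was 1 with no filter, upper-quartile scaling or edgeR. Versus tHet it was 2 with TMM or upper-quartile scaling, edgeR or DESeq2. In tHet versus Cre− limma, edgeR and DESeq2 called 0 of the 21, and 1 had an unadjusted limma p under 0.05. Rlbp1 encodes CRALBP, the retinaldehyde carrier of Müller glia and pigment epithelium. It stood at 217, 159 and 176 CPM in Cre−, 166, 150.3 and 169.8 CPM in tHet and 46.1, 86.5 and 49.5 CPM in Tet tcKO. Rlbp1 fell 3.11-fold versus Cre−, a log2FC of −1.64 (SE 0.24, limma adjusted p = 1.3e-04), and 2.76-fold versus tHet, a log2FC of −1.47 (SE 0.24, limma adjusted p = 4.8e-04). Both calls stood with every single library left out, and Tet tcKO replicate 2 was the highest Tet tcKO library, as for Glul and Abca8a. The part of pigment epithelium, whose marker sum was likewise lowest in Tet tcKO, in the level of Rlbp1 was not tested.

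Prdx6, a peroxiredoxin that could share reads with its retrogene copy Prdx6b, stood at 62.9, 38.0 and 45.8 CPM in Cre−, 47.1, 65.3 and 52.8 CPM in tHet and 124, 110.4 and 76.3 CPM in Tet tcKO. It rose 2.11-fold versus Cre−, a log2FC of 1.08 (SE 0.24, limma adjusted p = 0.00697), a call lost without Cre− replicate 2 or 3 or Tet tcKO replicate 1 or 2 (adjusted p up to 0.0621), with no filter, with upper-quartile scaling and in edgeR. The transcription factors Lhx2 and Sox2, which progenitors and Müller glia share, were not called. Lhx2 stood at 14.8, 10.9 and 14.8 CPM in Cre− and 20.5, 22.4 and 15.5 CPM in Tet tcKO, a log2FC of 0.51 (SE 0.25, limma adjusted p = 0.332) with no overlap, and versus tHet its log2FC was 0.74 (SE 0.25, limma adjusted p = 0.0994), again with no overlap. Sox2 stood at 23.3, 20.8 and 25.8 CPM in Cre− and 35.7, 28.0 and 23.7 CPM in Tet tcKO, a log2FC of 0.30 (SE 0.23, limma adjusted p = 0.658) with overlap. Only Tet tcKO replicate 3, the library rich in ribosomal RNA, lay within the Cre− range. The tHet libraries of Sox2, at 16.4, 15.1 and 20.9 CPM, all lay below those of Tet tcKO, a log2FC of 0.72 (SE 0.23, limma adjusted p = 0.0835).

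**Figure D5:**
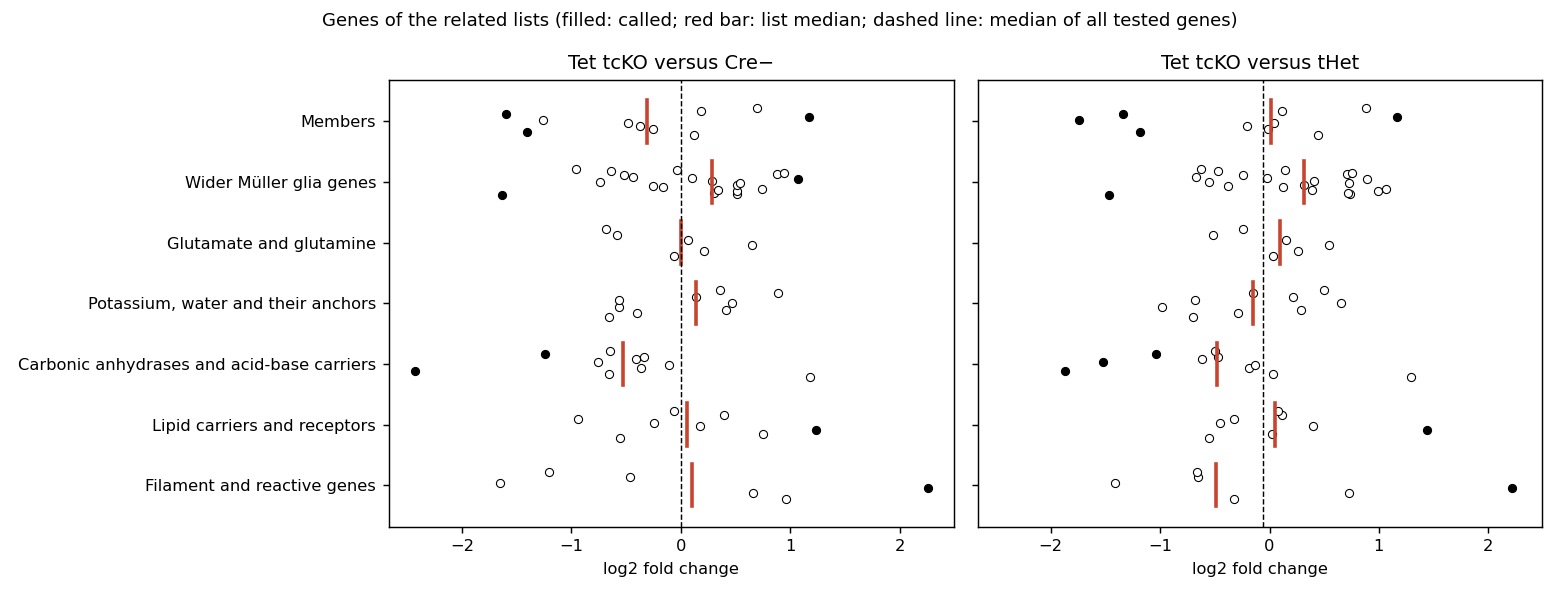
Log2 fold change (horizontal axis) of the 10 genes and the related lists in Tet tcKO versus Cre− and versus tHet, with 1 point per tested gene, filled where called, a red bar at each list's median and a dashed line at the median of all tested genes. The carbonic anhydrase and acid-base list has its median at −0.53 against Cre− and −0.48 against tHet, and the wider Müller glia list at 0.28 and 0.32.

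Partners of the same pathways were counted in 5 lists, of which 39 of 41 genes were tested. In Tet tcKO versus Cre−, 2 were called higher and 2 lower, with a median log2FC of −0.24 (2.03% and 1.57% of all tested genes were called), and versus tHet 2 higher and 3 lower, with a median of −0.19 (1.39% and 1.61% of all). In the glutamate list limma, edgeR and DESeq2 called 0 of 6 tested genes in either comparison, and 3 had an unadjusted limma p under 0.05 versus Cre− and 0 versus tHet. In the potassium and water list all of these tools called 0 of 9, and 4 had an unadjusted limma p under 0.05 in each comparison.

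In the list of 10 carbonic anhydrases and acid-base carriers, 2 were called versus Cre− and 3 versus tHet, all of them lower, where 1.57% and 1.61% of all tested genes were called lower. Car3, a carbonic anhydrase of low activity, had log2FC in the other direction, at 1.18 (SE 0.31, limma adjusted p = 0.0219) versus Cre− and 1.29 (SE 0.31, limma adjusted p = 0.0130) versus tHet, not called but above every library of both genotypes. Slc16a1 encodes MCT1, a carrier that moves lactate together with a proton. It stood at 207, 175 and 204 CPM in Cre−, 174, 179 and 156 CPM in tHet and 88.2, 91.1 and 69.6 CPM in Tet tcKO, a log2FC of −1.24 (SE 0.20, limma adjusted p = 4.8e-04) versus Cre− and −1.04 (SE 0.20, limma adjusted p = 0.00278) versus tHet. The second lies so near the fold threshold that TMM scaling (−0.97) ended the call, as did leaving out CT010467.1 (−0.90), both count tests, and leaving out Tet tcKO replicate 3 (−0.92). It was also lost without Tet tcKO replicate 1 or tHet replicate 1 or 2 (adjusted p up to 0.0262). Car8 encodes a carbonic anhydrase relative that lacks the enzyme activity. It stood at 159.5, 121 and 143 CPM in Cre−, 92.2, 109 and 84.8 CPM in tHet and 11.0, 56.4 and 26.5 CPM in Tet tcKO, a log2FC of −2.43 (SE 0.36, limma adjusted p = 1.7e-04) versus Cre− and −1.87 (SE 0.36, limma adjusted p = 0.00242) versus tHet, the first lost without Tet tcKO replicate 3 (adjusted p = 0.0152) and the second without replicate 1 (0.0161) or 3 (0.0492). The second was also lost with TMM or upper-quartile scaling, without CT010467.1, in edgeR and with no filter (adjusted p up to 0.0314). Car12, a membrane carbonic anhydrase, had a mean level of 3.68 ± 1.59 CPM (SD, n = 3) in Cre−, against 6.28 ± 1.34 in tHet and 1.86 ± 0.446 in Tet tcKO, with Tet tcKO and tHet not overlapping. It was called versus tHet only, with a log2FC of −1.52 (SE 0.35, limma adjusted p = 0.00991), and the call was lost without Cre− replicate 3 or any 1 of the tHet and Tet tcKO libraries (adjusted p up to 0.0562), and with a pseudocount of 0.1, no filter, TMM or upper-quartile scaling, CT010467.1 left out, or edgeR.

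Of 8 lipid carriers and receptors, Abca1 alone was called, and it was higher in both comparisons. Abca1 encodes the transporter that loads cholesterol onto apolipoproteins such as apolipoprotein E. It stood at 50.2, 54.8 and 53.5 CPM in Cre−, 40.8, 63.9 and 36.6 CPM in tHet and 191, 131 and 77.9 CPM in Tet tcKO, a log2FC of 1.24 (SE 0.28, limma adjusted p = 0.00705) versus Cre− and 1.44 (SE 0.28, limma adjusted p = 0.00234) versus tHet. Its Tet tcKO level was lowest in replicate 3, the library in which Apoe was highest. The call against Cre− was lost without Cre− replicate 1 or 3 or Tet tcKO replicate 1 or 2 (adjusted p up to 0.0773), and that against tHet was lost without tHet replicate 1 (0.0155) or Tet tcKO replicate 1 (0.0311), and both with no filter (0.0339 and 0.0151). Of 6 tested filament and reactive genes, Plec, which encodes the filament linker plectin, was called higher in both comparisons. Plec stood at 58.3, 62.8 and 77.8 CPM in Cre−, 61.8, 57.1 and 88.1 CPM in tHet and 359, 306 and 290.2 CPM in Tet tcKO, a log2FC of 2.26 (SE 0.22, limma adjusted p = 1.2e-06) versus Cre− and 2.22 (SE 0.22, limma adjusted p = 1.8e-06) versus tHet.

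Between the controls, tHet against Cre−, limma called 0 of the 10 genes, and so did edgeR and DESeq2, while 1 of the 10 (Car2) had an unadjusted p under 0.05. For Slc1a3, Aqp4, Car2 and Abca8a the 3 tHet libraries lay below all 3 Cre− libraries. Their log2FC were −0.32, −0.17, −0.53 and −0.26, with limma adjusted p of 1.000 for each. Over all genes limma called 9 higher and 0 lower, edgeR 1 higher and 0 lower, and DESeq2 36 higher and 4 lower, and at an unadjusted limma p under 0.05 the level in tHet was higher for 764 genes and lower for 206. Of 5 tested markers of ciliary body and vitreous matrix, tissue next to the retina, 4 were among the limma calls. Of the same 5, edgeR called 0 and DESeq2 5, and limma called 0.0422% of all tested genes higher. The summed level of the 6 listed was 52.3, 46.8 and 72.1 CPM in Cre−, 208, 189.6 and 298 CPM in tHet and 289, 381 and 283 CPM in Tet tcKO. In Cre− replicate 1, 1 of the 6 was at 0. In Tet tcKO versus Cre− limma called 5 of 5 higher, where it called 2.03% of all tested genes higher. There edgeR and DESeq2 also called 5 of 5. The part of this tissue in the levels of the 10 genes was not tested. The 95% intervals of log2FC for Glul (−0.76 to 0.32) and Apoe (−0.53 to 0.53) exclude −1 and 1, whereas that of Car14 (−0.23 to 1.20) includes 1.

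The mean of the 10 genes, each centred on its own mean over the 9 libraries on the log2 scale, was highest in tHet replicate 3 (0.27) and lowest in Tet tcKO replicate 3 (−0.40). In Tet tcKO replicate 3 only 2 of the 10 genes exceeded their own mean, against 8 in Cre− replicates 1 and 3. With CT010467.1 left out of the library totals, the mean in Tet tcKO replicate 3 was 0.0203 with 6 of the 10 above their own mean, and the lowest was Tet tcKO replicate 1 (−0.23), so the low place of replicate 3 rests on the reads of that gene. Among 9617 other genes with a mean of at least 5 CPM and an SD over the libraries no smaller than that of this profile, the closest profiles over the 9 libraries were those of Lmo4 (root mean square difference 0.0907 on the log2 scale), Fmnl1 (0.0917) and Dusp3 (0.0937). The libraries share the same totals in all these profiles, and likeness over 9 libraries is a description.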

How the data were processed

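Whole-retina total RNA was depleted of ribosomal RNA by the authors and made into stranded libraries (SMARTer Stranded Total RNA), and all 9 were sequenced in 1 pool. Per the labels and the study's methods, reads were trimmed with Trim Galore 0.6.7, aligned to mm10 with STAR 2.7.0f, and counted with HTSeq 0.11.2. The annotation release, strand and overlap settings are not given in the sources used here. The deposited values are CPM per gene on plain library totals, without scaling factors. All positive values came out as whole reads (tolerance 0.02), and recovered reads per library ran from 9627927 to 21108256. Columns with the authors' own edgeR comparisons (fold changes, p-values, false discovery rates, average log CPM) were not used.

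Here, genes that reached 0.5 CPM in 3 or more libraries were kept, and their log2(CPM + 0.5) was fitted with limma 3.58.1 (R 4.3.3) over all 9 libraries with 1 mean per genotype, an intensity trend and Benjamini-Hochberg adjustment. All p-values are two-sided, and since each library pools 2 animals they measure the spread between pools. Other settings tried were pseudocounts of 0.1 and 1, no filter and 1 CPM as the filter, TMM and upper-quartile scaling, CT010467.1 left out, edgeR 4.0.16 and DESeq2 1.42.0 on recovered reads, a replicate block, only the 6 libraries compared, other thresholds, and leaving out each library. The tests were checked on simulated counts. Gene positions come from GENCODE M21 (GRCm38), which matched 55227 of 55487 identifiers when versions were ignored. Lengths are unions of exons.

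The genes, lists, tests and naming rule were chosen with earlier results of these data known. Named were the 10 genes, called genes of the wider and pathway lists, Gfap, Rlbp1, Lhx2, Sox2 and Abca8b in any case, and the 3 genes of most similar profile. Markers of other cell types were used only beside a result. CT010467.1, Cx3cr1, Rpe65, Lrat and Car3 were chosen for naming from their values.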

Additional observations from a re-analysis of the deposited data

How the results depend on the processing

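Of the log2FC of the 10 genes over 3 comparisons and 20 alternatives, 521 of 600 kept both direction and side of the threshold, 47 lost a call, 7 gained one and 25 changed sign. Genes called of the 10 in Tet tcKO versus Cre− numbered 3, with 1 under no filter and 0 to 4 with a library left out (0 without Tet tcKO replicate 1, 1 without Cre− replicate 3 or Tet tcKO replicate 3). Versus tHet they numbered 4, with 0 under no filter, 1 with TMM scaling, 2 with upper-quartile scaling, 2 without CT010467.1, 1 in edgeR and 0 to 4 with a library left out (0 without Tet tcKO replicate 1, 1 without tHet replicate 1 or 2 or Tet tcKO replicate 3, 2 without Cre− replicate 3). Over all genes, 768 calls versus Cre− became 417 with no filter, 1156 at an adjusted p under 0.05, 1387 with no fold threshold as well, and 360 to 976 with a library left out. The 640 versus tHet became 351 with no filter, 1046 in DESeq2, 1013 with only the 6 libraries compared, 1104 at an adjusted p under 0.05, 1270 with no fold threshold as well, and 287 to 959 with a library left out. The 9 of tHet versus Cre− became 1 with no filter, TMM or upper-quartile scaling, CT010467.1 left out, edgeR, or the 6 libraries compared, 40 in DESeq2, 20 at an adjusted p under 0.05 with or without the fold threshold, and 0 to 17 with a library left out. Leaving out CT010467.1 moved the median of all genes by over 0.1, to 0.14 versus Cre− and 0.07 versus tHet, and the calls to 607 higher and 221 lower versus Cre− (434 and 334 otherwise) and 424 higher and 215 lower versus tHet (297 and 343 otherwise). Signs changed for log2FC near 0. Kcnj10 versus tHet was 0.0525 with TMM, 0.0090 with upper-quartile scaling, 0.13 without CT010467.1, 0.0274 in edgeR, 0.0237 in DESeq2, and −0.10 to 0.10 with a library left out. In tHet versus Cre−, Apoe was −0.0658 with TMM and −0.0742 with upper-quartile scaling, and −0.28 to 0.27 with a library left out. Vim in tHet versus Cre− was −0.0024 with TMM, −0.0107 with upper-quartile scaling, −0.0053 in edgeR, −0.0107 in DESeq2, and −0.17 to 0.29 with a library left out. With a library left out, Vim ran from −0.0572 to 0.45 versus Cre− and −0.12 to 0.38 versus tHet, Car2 versus tHet from −0.0583 to 0.18, and Gfap versus tHet from −0.83 to 0.34. The cause was not tested in any of these.

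With replicate number as a block, calls numbered 1127 versus Cre−, 1125 versus tHet and 40 in tHet versus Cre−, and Car14 was called versus Cre− (adjusted p = 2.3e-04). Same-numbered libraries correlated at −0.350 to 0.560 over 9 pairs, 5 of them over 0.1, and 5 of 9 libraries correlated best with their own number. The mean correlation was 0.11 for the same number and −0.05 for different numbers. Whether same-numbered libraries share a batch was not tested, and the main fit left the number out.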
